A study of Homo sapiens with 4 samples.

Results

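The DEAD and DEAH box RNA helicases were represented by 51 genes, 35 with DDX symbols and 16 with DHX symbols, of 18132 genes measured in all. They were chosen by symbol alone (DDX or DHX, a number and at most 1 further letter) among array probe sets that carry a single gene symbol, leaving out DDX3Y, a rule that uses no measured value. Each gene took the value of its probe set with the highest mean log2 signal over the arrays, out of 135 probe sets for the 51 genes. The cells were U87MG, an established human glioblastoma line grown in medium with fetal bovine serum. They were kept for 24 h with 10 µM mycophenolic acid (MPA), with 100 µM guanosine, with MPA and guanosine together at these doses, or with DMSO as the control. Total RNA of each condition was read on 1 Affymetrix PrimeView array, a chip that measures mRNA near the 3′ end, so there were 4 arrays and no replicates. Each difference below is therefore between 2 arrays, its error is unknown, and no p-value is given.

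RNA helicases of this superfamily use ATP to unwind short RNA duplexes or to strip proteins from RNA. The names come from a conserved motif, Asp-Glu-Ala-Asp in the DEAD box family and Asp-Glu-Ala-His in the DEAH box family. Members here were taken by symbol, and whether each carries the exact motif was not checked. Different members act at almost every step in the life of an RNA, and the nucleolus, where ribosomes are assembled, holds many of them. MPA inhibits IMP dehydrogenase, the branch point toward GTP in purine synthesis, and cells can make GTP from supplied guanosine by salvage, bypassing the block. By its title the series concerns this enzyme and the nucleolus, and the comparisons ask how the helicase mRNAs stood when the enzyme was blocked and when guanosine was supplied.

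A floor for dim genes was set at the median of all values from probe sets other than controls, 63.0 in linear signal, and genes below it on both arrays of a comparison were left out of it. Of the 51 genes, 45 reached it on at least 1 array. The other 6 were below it on all 4 arrays: DDX4, DDX25, DDX43, DDX53, DDX19B and DDX47. DDX4, DDX25, DDX43 and DDX53 are known mainly from germ cells or testis, and their signals lay between 12.6 and 24.5 on the MPA array and between 14.1 and 19.2 in the control. DDX47, a ribosome assembly helicase, was read here by a probe set at 7.95 with MPA, 8.39 with guanosine, 9.02 with both and 7.89 in the control. Another probe set of DDX47 lists a second gene and was not used, so these values say little about DDX47. Likewise DDX39B was read by 1 probe set near the floor, because its others also list a read-through transcript.

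The MPA array differed most from the control over all probe sets (r = 0.990 on the log2 scale, against 0.997 for both other treated arrays). Among markers of the labelled cell type, VIM and CD44 were bright, with signals of 18322 and 5811 on the MPA array and 19783 and 6286 in the control. This CD44 probe set differed by -0.11. The other CD44 probe sets above the floor ranged from -0.21 to 0.45, most of them higher with MPA. GFAP was dim, at 137 with MPA and 116 in the control. NES was at 142 with MPA and 221 in the control, the 1 gene of the 5 above the floor that was at least 1.5-fold lower (log2 -0.63), and OLIG2 was near the floor at 56.4 with MPA and 63.4 in the control. S100B, AQP4 and SOX2 were below the floor on all 4 arrays. The 3 measured leukocyte markers were below the floor. Of the endothelial, epithelial and neuronal lists of 4 genes each, 3, 2 and 3 entered the comparison of MPA with control, with median differences of 0.24, 0.46 and 0.28. EPCAM, of the epithelial list, was the 1 gene of these past 1.5-fold, at 102 with MPA and 55.5 in the control, where it was below the floor (log2 0.88). Summed over each list, the signals were 308.9, 262.1 and 399.8 with MPA and 293.5, 206.3 and 337.6 in the control. Their part in the helicase values was not tested. RNA came from whole cultures, so fewer cells of a kind and less RNA per cell cannot be told apart.

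MPA against control asks what 24 h of enzyme block did to the helicase mRNAs. Most of them were lower with MPA: 35 of 45 were lower and 10 higher, with a median log2 difference of -0.20. Over all 11204 genes compared the median was 0.01 and 49.1% were lower, against 77.8% of the helicases. The differences were small. Only 4 of the 45 were at least 1.5-fold lower (7.31% of all genes were) and 1 was at least 1.5-fold higher (5.31% of all genes), while 0 passed 2-fold in either direction (1.4% of all genes were lower and 1.69% higher). The MPA array was the lowest of the 4 arrays for 30 of 45 helicases (41.7% of all genes) and the highest for 7 (41.3% of all genes). The poly-A spike-in transcripts, bacterial RNAs added before labelling, were also lower with MPA than in the control, by a median of -0.24, and this held for 24 of 24 probe sets. Their part in the helicase values was not tested. The spike-in transcripts added at hybridisation differed by a median of -0.03.

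**Figure D1:**
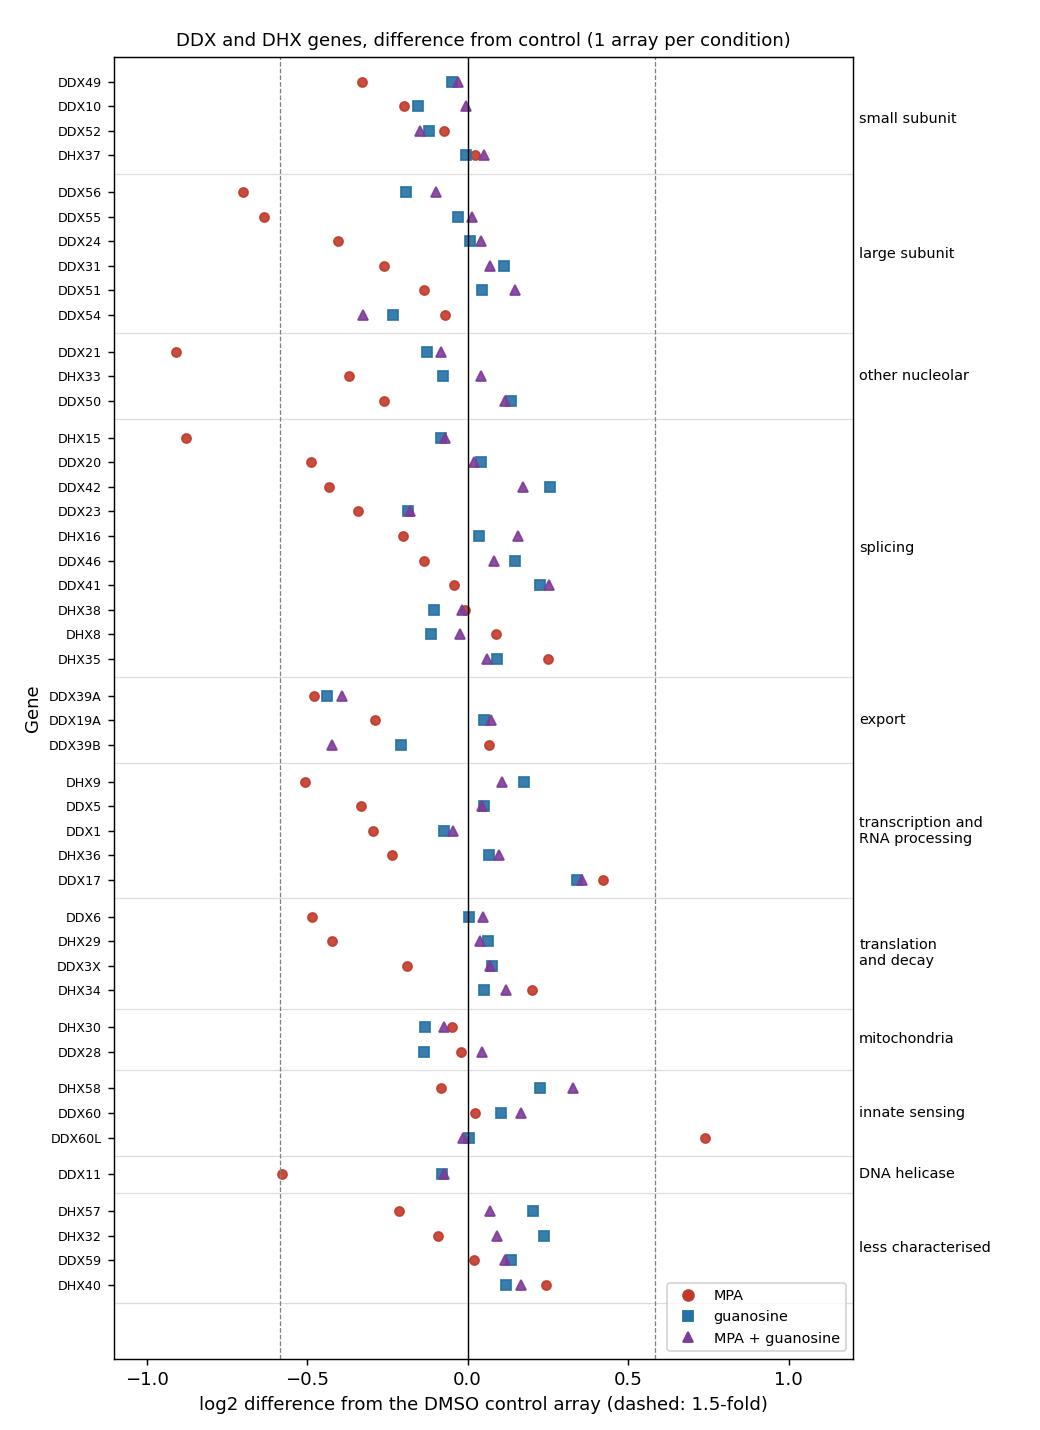
Log2 difference from the DMSO control array (x axis) for the 45 helicase genes above the floor (rows, grouped by role), with MPA as circles, guanosine as squares and MPA + guanosine as triangles; each point is 1 array minus 1 array, and dashed lines mark 1.5-fold. The MPA circles of DDX21, DHX15, DDX56 and DDX55 lie left of the lower line and that of DDX60L right of the upper line, while all squares and triangles lie between the lines.

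DDX21 had the largest difference of the family. It encodes a nucleolar helicase that binds ribosomal RNA and small nucleolar RNAs and associates with RNA polymerase I. Its signal was 1887 with MPA, 3240 with guanosine, 3341 with both compounds and 3540 in the control. The MPA array alone was low, and the other 3 arrays lay within 0.13 of each other on the log2 scale. Such a pattern was common on these arrays. The MPA difference from control exceeded the range of the other 3 arrays for 66.7% of helicases and 64.9% of all genes. MPA against control was 1.88-fold lower (log2 -0.91), and the other 2 probe sets of DDX21 gave -0.98 and -0.94.

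DHX15, which takes spent spliceosomes apart and also acts on precursor ribosomes, had a signal of 1296 with MPA, 2245 with guanosine, 2267 with both and 2378 in the control. Again only the MPA array was low, 1.84-fold below control (log2 -0.88), and the gene has 1 probe set. DDX56, whose yeast counterpart acts in assembly of the large ribosomal subunit, read 559 with MPA, 794 with guanosine, 848 with both and 907 in the control. Its MPA difference was 1.62-fold (log2 -0.70), also on 1 probe set, and its guanosine array lay between the MPA array and the remaining ones.

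The stretches around the annotated start sites of these 3 genes, the lowest of the family with MPA, are shown because their mRNAs were low together. They are RefSeq promoters of GRCh38.p14, 250 bases before to 50 bases after the start, 5′ to 3′ on the gene's strand. These 4 short motifs were searched on both strands and are in capitals: CACGTG (the E-box that MYC and related factors bind), CCGGAAG (the core of ETS family sites), GGGCGG (the GC box of SP factors) and TATAAA (the TATA box). DDX21 has 2 listed start sites, at chr10:68955920-68956219 and chr10:68956397-68956696 (both plus strand). DHX15 lies at chr4:24584505-24584804 and DDX56 at chr7:44573859-44574158 (both minus strand).
DDX21, start site 1: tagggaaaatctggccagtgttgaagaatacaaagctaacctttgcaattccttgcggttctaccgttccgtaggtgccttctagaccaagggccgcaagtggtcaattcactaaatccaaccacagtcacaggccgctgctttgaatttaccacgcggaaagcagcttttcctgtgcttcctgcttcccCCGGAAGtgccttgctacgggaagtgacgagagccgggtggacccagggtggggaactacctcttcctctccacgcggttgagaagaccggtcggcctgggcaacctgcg
DDX21, start site 2: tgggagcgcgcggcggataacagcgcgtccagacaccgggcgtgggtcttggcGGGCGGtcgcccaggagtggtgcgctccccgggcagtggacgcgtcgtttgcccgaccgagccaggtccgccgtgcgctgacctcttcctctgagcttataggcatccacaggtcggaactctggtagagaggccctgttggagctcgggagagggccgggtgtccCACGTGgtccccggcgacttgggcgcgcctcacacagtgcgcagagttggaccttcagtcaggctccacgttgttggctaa
DHX15: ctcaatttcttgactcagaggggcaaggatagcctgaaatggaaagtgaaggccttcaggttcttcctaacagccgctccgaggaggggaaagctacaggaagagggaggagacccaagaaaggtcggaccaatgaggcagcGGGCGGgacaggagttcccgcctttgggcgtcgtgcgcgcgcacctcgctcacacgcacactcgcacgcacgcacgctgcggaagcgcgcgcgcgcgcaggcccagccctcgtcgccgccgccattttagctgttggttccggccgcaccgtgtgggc
DDX56: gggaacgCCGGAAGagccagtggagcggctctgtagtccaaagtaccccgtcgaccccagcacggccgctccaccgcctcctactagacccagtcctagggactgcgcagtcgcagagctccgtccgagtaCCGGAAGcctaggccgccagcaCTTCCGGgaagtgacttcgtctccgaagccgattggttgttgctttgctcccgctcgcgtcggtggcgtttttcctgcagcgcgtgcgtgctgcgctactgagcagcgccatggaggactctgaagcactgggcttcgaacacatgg

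The first start site of DDX21 held CCGGAAG from base -60 to -54, and the second held GGGCGG from -197 to -192 and CACGTG from -31 to -26, counting bases before the start. DHX15 held GGGCGG from -108 to -103 only, and DDX56 held 3 copies of CCGGAAG, 1 of them on the opposite strand from -97 to -91. Of the 51 helicase genes, 47 had a promoter in the table. Taking the first listed start site of each, CCGGAAG occurred in 19 of 47 (40.4%), in 19.1% of the 9258 promoters of all genes compared between MPA and control, and in 10.7% of all 27305 promoters. CACGTG occurred in 8 of 47 (17.0%), against 10.3% and 7.43% of those promoters. GGGCGG occurred in 26 (55.3%), against 69.9% and 44.6%, and TATAAA in 2 (4.26%), against 5.91% and 12.0%. These are letter matches only, and whether any factor binds there was not measured. The 47 helicase promoters include those of DDX4, DDX19B, DDX25, DDX43, DDX47 and DDX53, which were below the floor. The 9258 leave such genes out, so these sets were not chosen alike.

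The role groups below hold few genes each and were set with earlier results known, so counts within them are descriptions only. The helicases of small subunit assembly differed little with MPA. Of 4 genes above the floor 3 were lower (49.1% of all genes were), with a median of -0.14. DDX49, whose yeast counterpart works in the small subunit processome, was lowest, with signals of 295 with MPA, 358 with guanosine, 362 with both and 370 in the control (log2 -0.33). DHX37, which helps to release the U3 small nucleolar RNA from the assembling subunit in human cells, was highest, at 237 with MPA, 233 with guanosine, 242 with both and 233 in the control. The DHX37 arrays were all within 0.06 of each other on the log2 scale. DDX10 and DDX52, also known from the yeast processome, differed from control by -0.20 and -0.07, and a second DDX52 probe set by 0.20.

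Large subunit assembly held 6 members, all lower with MPA on their brightest probe sets (49.1% of all genes were lower). At least 1.5-fold lower were 2 of them (7.31% of all genes were). The group median was -0.33, and -0.54 when each gene was the median over all its probe sets. After DDX56 came DDX55, with a signal of 164 with MPA, 249.6 with guanosine, 257 with both and 255 in the control. Only the MPA array was low, 1.55-fold below control (log2 -0.63), and its 4 probe sets ranged from -0.80 to -0.58. Its brightest probe set can bind several genes, and the difference was -0.58, just short of 1.5-fold, without such probe sets and also with each array centred on its median. DDX24 differed by -0.40 on its brightest probe set and by -0.68 to -0.40 over 5 probe sets, all lower. DDX31 stood at -0.26 with 4 probe sets between -0.52 and -0.26, and DDX51 at -0.14 with 3 between -0.14 and 0.02. DDX54 was the highest of the group at -0.07. Its signal was 483 with MPA, 432 with guanosine, 405 with both and 507 in the control, so the array with both compounds was its lowest, and its 4 probe sets with MPA ranged from -0.07 to 0.22.

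Besides DDX21, the nucleolar group held DHX33 and DDX50. DHX33, which takes part in ribosomal RNA transcription, differed by -0.37, and by -0.59 on its second probe set above the floor. DDX50, the close paralogue of DDX21, had a signal of 651 with MPA, 856 with guanosine, 845 with both and 779 in the control. Its MPA difference of -0.26 was smaller than that of DDX21, and its control lay below both arrays with guanosine. All 3 genes were lower with MPA (49.1% of all genes were), with a median of -0.37.

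Splicing helicases ranged from DHX15 at the low end to DHX35 at the high end. Of 10 genes 8 were lower (49.1% of all genes were), with a median of -0.17. DHX15 alone was at least 1.5-fold lower (7.31% of all genes were). DDX20, the Gemin3 protein of the complex that loads Sm proteins onto small nuclear RNAs, differed by -0.49. DDX42, found with the branch-site complex SF3B, differed by -0.43 and DDX23, which unwinds RNA in spliceosome activation, by -0.34. Closer to control were DHX16, which acts before the first step of splicing, at -0.20, DDX46, of branch-site recognition, at -0.14, and DDX41 at -0.04. DHX38, of the second step, stood at -0.01 and DHX8, which releases the spliced mRNA, at 0.09. DHX8 gave -0.29 on its second probe set. DHX35, found in spliceosomes, had a signal of 268 with MPA, 239.7 with guanosine, 235 with both and 225 in the control, which made MPA its highest array by 0.25 over control.

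In the export group DDX39A was lower on all 3 treated arrays. It serves mRNA export from the nucleus, as does its paralogue DDX39B. The DDX39A signal was 1935 with MPA, 1989 with guanosine, 2052 with both and 2693 in the control. The control array alone stood apart, above all 3 treated arrays, with differences of -0.48, -0.44 and -0.39, and the second probe set gave -0.40, -0.50 and -0.55. DDX39B read 85.0 with MPA, 70.3 with guanosine, 60.6 with both and 81.1 in the control, near the floor throughout and below it with both. DDX19A, which remodels mRNA at the nuclear pore, differed by -0.29 with MPA on a probe set whose probes can bind several genes, and by 0.15 on another. The group had 2 of 3 genes lower with MPA (49.1% of all genes were).

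The helicases of transcription and RNA processing held a pair of paralogues with opposite differences. DDX5 and DDX17 both act as transcription coregulators and as partners of the Drosha complex that cuts microRNA precursors. DDX5 had a signal of 4685 with MPA, 6111 with guanosine, 6085 with both and 5902 in the control. Its MPA array was low (log2 -0.33), and its 5 probe sets lay between -0.37 and -0.04. DDX17 read 6179 with MPA, 5841 with guanosine, 5907 with both and 4609 in the control. Here the control array alone was low, and the treated arrays stood 0.42, 0.34 and 0.36 above it. The other DDX17 probe set above the floor was dim, at 68.0 with MPA, 77.6 with guanosine, 75.6 with both and 63.4 in the control.

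DHX9, which unwinds double-stranded RNA and RNA-DNA hybrids in the nucleus, read 661 with MPA, 1059 with guanosine, 1011 with both and 938 in the control. Its brightest probe set was thus lower with MPA (log2 -0.50). A second one, at 224 with MPA, 281 with guanosine, 176 with both and 202 in the control, was higher with MPA by 0.15, so the direction for DHX9 depends on the probe set. DDX1, of the transfer RNA ligase complex, differed by -0.30 and DHX36, which resolves G-quadruplexes, by -0.23, with 5 DHX36 probe sets between -0.44 and -0.22. In this group 4 of 5 genes were lower (49.1% of all genes were), with a median of -0.30.

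Translation and decay helicases were lower in 3 of 4 cases (49.1% of all genes were), with a median of -0.31. DDX6, which represses mRNAs and feeds them to decapping, read 573 with MPA, 805 with guanosine, 829 with both and 802 in the control. The MPA array was the low one by 0.48, and the other 3 arrays were within 0.05 of each other. DHX29, which helps initiation on structured mRNAs, differed by -0.42. DDX3X, a translation factor with many further roles, read 3501 with MPA, 4207 with guanosine, 4195 with both and 3993 in the control (log2 -0.19), and its 7 probe sets ranged from -0.40 to 0.02. DHX34, of nonsense-mediated decay, was near the floor at 69.3 with MPA, 62.4 with guanosine, 65.5 with both and 60.3 in the control.

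**Figure D2:**
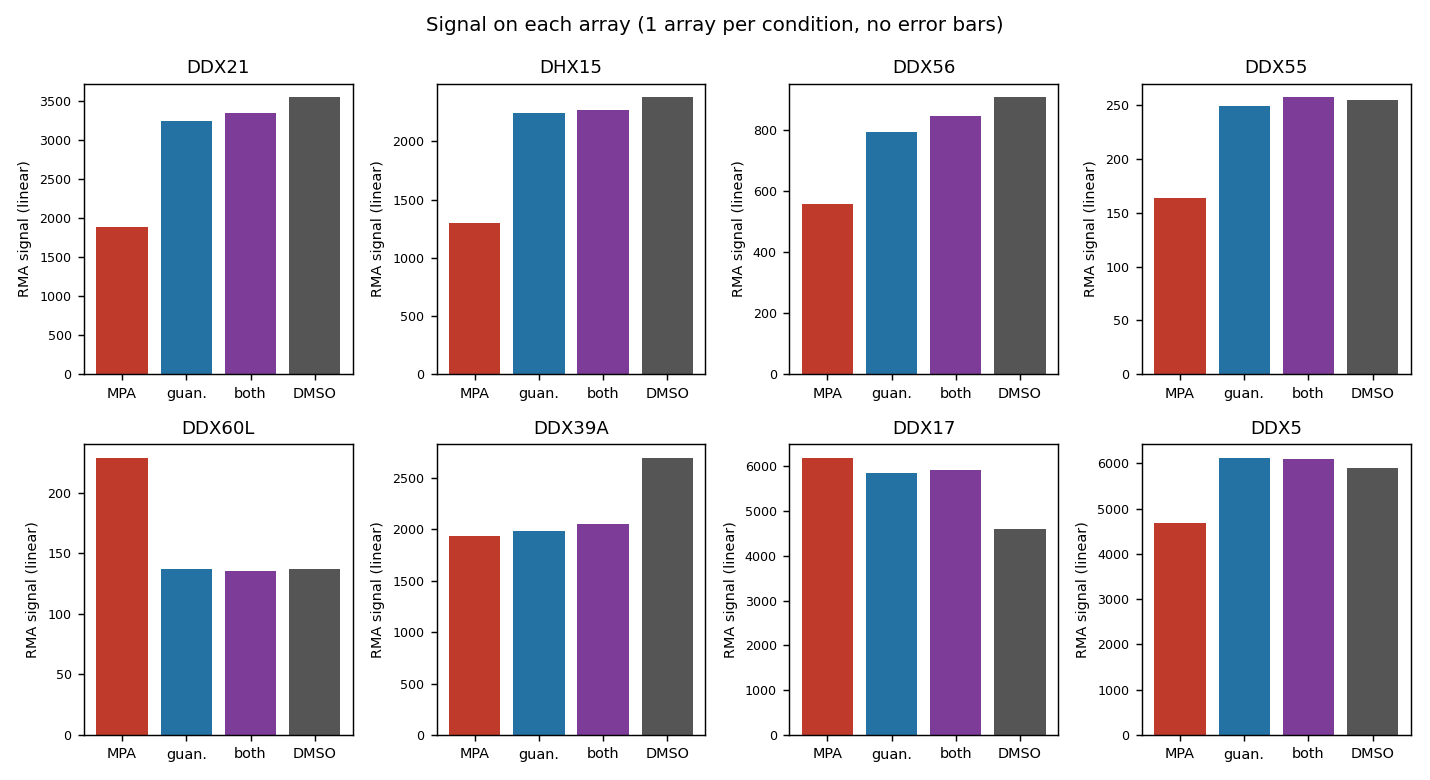
RMA signal on a linear scale (y axis, from 0, a different range in each panel) of 8 helicase genes on the arrays with MPA, guanosine, both compounds and DMSO; each bar is 1 array, so there are no error bars. The MPA bar is the low one for DDX21, DHX15, DDX56, DDX55 and DDX5 and the high one for DDX60L, whereas the DMSO bar stands apart for DDX39A (high) and DDX17 (low).

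Mitochondrial helicases hardly differed from control with MPA. DHX30 and DDX28, both of which take part in assembly of the mitochondrial ribosome, stood at -0.05 and -0.02. DHX30 read 415 with MPA, 392 with guanosine, 408 with both and 429 in the control, and DDX28 read 292 with MPA, 269.7 with guanosine, 305 with both and 296 in the control. Over the 3 arrays other than MPA, the log2 range was 0.13 for DHX30 and 0.18 for DDX28.

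Of the innate sensing group, DDX60L was the family's highest gene with MPA. It is the paralogue of the antiviral helicase DDX60. Its signal was 228 with MPA, 137 with guanosine, 135 with both and 137 in the control. Only the MPA array was high, 1.67-fold above control (log2 0.74), and the other 3 arrays lay within 0.02 of each other; the gene has 1 probe set. DDX60 itself read 96.3 with MPA, 102 with guanosine, 106 with both and 94.8 in the control, a difference of 0.02. DHX58, the RIG-I-like receptor LGP2, read 86.2 with MPA, 107 with guanosine, 114 with both and 91.2 in the control, so that its high arrays were those with guanosine. The group median was 0.02. With each gene as the median over all its probe sets it was 0.38, because DHX58 was then below the floor and left out. DDX60 and DDX60L, with 1 probe set each, kept their values.

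DDX11, a DNA helicase of sister chromatid cohesion, fell just short of 1.5-fold on the probe set that represents it. That probe set, whose probes can bind several genes, read 181 with MPA, 257 with guanosine, 258 with both and 271 in the control, 1.49-fold lower. Another above the floor read 199.9 with MPA, 138 with guanosine, 131 with both and 155 in the control and was higher with MPA by 0.37. Near-identical copies of DDX11 exist in the genome, and the direction for this gene is uncertain. The less characterised genes lay on both sides of 0. DHX57 was lowest at -0.21, at 205 with MPA, 273 with guanosine, 249.0 with both and 237 in the control. DHX40 was highest at 0.24, at 1519 with MPA, 1394 with guanosine, 1441 with both and 1283 in the control, and its 3 probe sets lay between 0.18 and 0.24. DHX32 and DDX59 differed by -0.09 and 0.02.

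**Figure D3:**
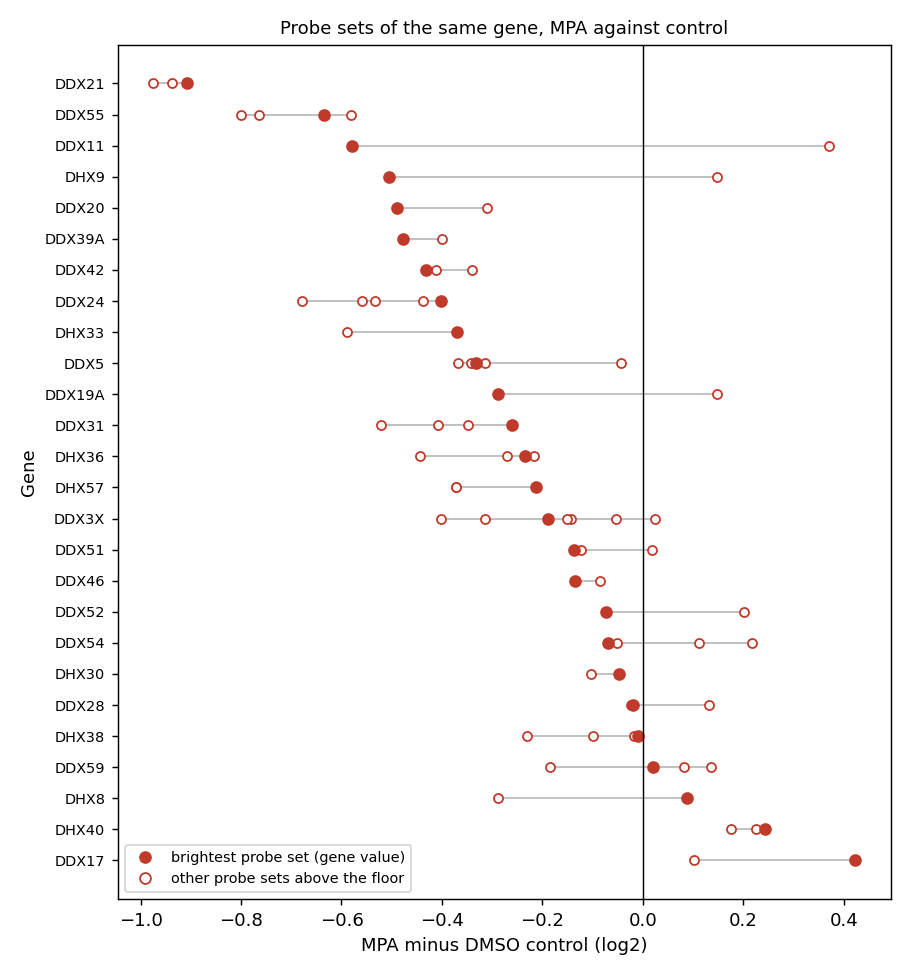
MPA minus DMSO control on the log2 scale (x axis) for each probe set above the floor of the 26 helicase genes with at least 2 such probe sets (rows); filled points are the brightest probe set, which gives the gene's value, and open points the others. The points of 14 genes all lie below 0, those of 2 genes all above it, and those of 10 genes, DDX11 and DHX9 among them, on both sides.

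Probe sets of 1 gene share their RNA and array, so they check the reading and not the condition. Of the 26 genes with at least 2 probe sets above the floor, 16 had them all on 1 side of control, 14 of these lower with MPA (DDX21, DDX55, DDX24 and DDX42 among them) and 2 higher (DDX17 and DHX40). The other 10 had probe sets on both sides. No share over all genes stands beside these counts, so they do not show whether such agreement is usual on this chip.

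The effect of MPA in guanosine-supplied cells is read from MPA + guanosine against guanosine, a comparison that has no array in common with MPA against control. The helicases barely differed here. Their median was 0.02, as it was over all 10861 genes, and 28 of 45 were higher. None was 1.5-fold different: 0 higher (0.0% of all genes) and 0 lower (0.0184% of all genes). The extremes were DDX39B at -0.21 and DDX28 at 0.18. DDX21 differed by 0.04 in this comparison, DHX15 by 0.01, DDX56 by 0.09, DDX55 by 0.04 and DDX60L by -0.02, against -0.91, -0.88, -0.70, -0.63 and 0.74 without guanosine. The second DHX9 probe set was the one reading to pass 1.5-fold, at -0.68, where the brightest gave -0.07.

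**Figure D4:**
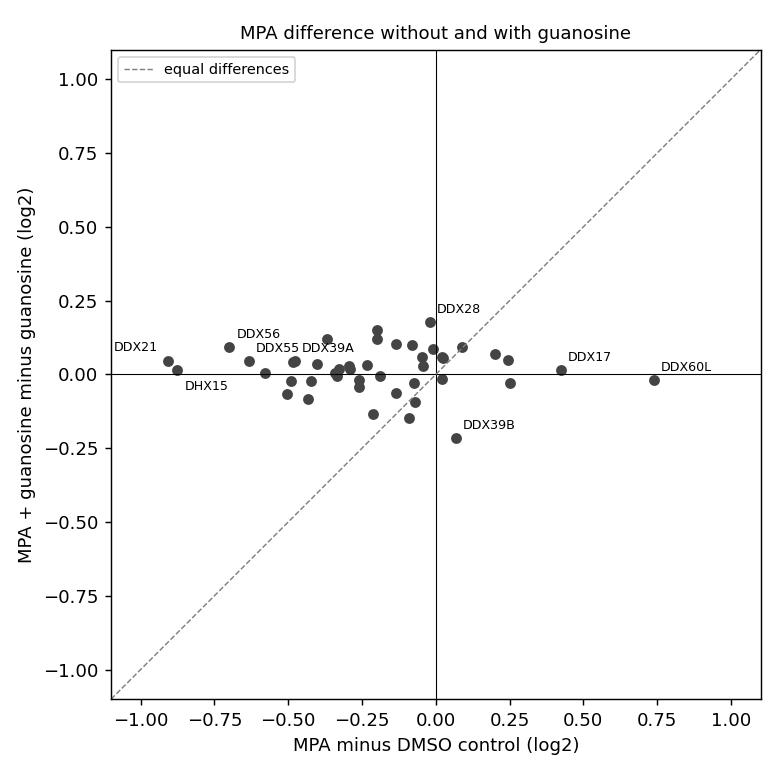
Log2 difference of MPA minus DMSO control (x axis) against that of MPA + guanosine minus guanosine (y axis) for the 45 helicase genes above the floor; each point is 1 gene, the axes have equal scales, and the dashed line marks equal differences. The points spread from -0.91 (DDX21) to 0.74 (DDX60L) along x and only from -0.21 (DDX39B) to 0.18 (DDX28) along y.

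Guanosine against control asks what the nucleoside did without MPA. The median was 0.02 over 44 helicases, 19 lower and 25 higher, against -0.0011 over all genes. At 1.5-fold, 0 were higher (0.339% of all genes) and 0 lower (0.11% of all genes). The lowest was DDX39A at -0.44 and the highest DDX17 at 0.34, the same genes whose control array stood apart above. DDX54 at -0.23, DDX39B at -0.21, DDX56 and DDX23 both at -0.19 followed on the low side. On the high side stood DDX42 at 0.26, DHX32 at 0.24, DHX58 and DDX41 both at 0.23 and DHX57 at 0.20.

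MPA + guanosine against control uses the same control array as the comparison just given, so their values are set side by side and not counted as agreeing. Of 45 helicases 16 were lower and 29 higher, with a median of 0.04, against 0.01 over all genes. Again 0 were at least 1.5-fold higher (0.421% of all genes) and 0 lower (0.137% of all genes). The lowest gene, DDX39B, stood at -0.42 with both compounds and at -0.21 with guanosine. DDX17 stood at 0.36 with both compounds and at 0.34 with guanosine, DDX39A at -0.39 and -0.44, DDX54 at -0.32 and -0.23, DHX58 at 0.33 and 0.23, and DDX41 at 0.25 and 0.23. DDX42 stood at 0.17 and 0.26, and DHX32 at 0.09 and 0.24.

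MPA + guanosine against MPA asks what guanosine did in cells also given MPA, and MPA against guanosine sets the single compounds beside each other; both share the MPA array with the first comparison. With guanosine added to MPA, 34 of 45 helicases were higher and 11 lower, with a median of 0.28 against 0.02 over all genes. At least 1.5-fold higher were 6 (8.47% of all genes): DDX21 at 0.82, DHX15 at 0.81, DDX55 at 0.65, DHX9 and DDX42 both at 0.61, and DDX56 at 0.60. The count was 2 when each array was centred on its median and also after cyclic loess. For DHX9 the second probe set above the floor went the other way here, at -0.35. The single gene at least 1.5-fold lower (4.77% of all genes) was DDX60L at -0.75. In MPA against guanosine the median was -0.27, with 5 genes at least 1.5-fold lower (7.5% of all genes) and DDX60L alone higher (5.11% of all genes). The 5 were DHX15 at -0.79, DDX21 at -0.78, DDX42 at -0.69, DHX9 at -0.68 and DDX55 at -0.60. The poly-A spike-ins differed in the same direction as the helicase medians, by a median of 0.50 and -0.42. Against control they were higher by a median of 0.22 with guanosine and 0.24 with both compounds, where the helicase medians were 0.02 and 0.04. Their part in the helicase values was not tested.

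Proteins that work with these helicases were read from a list of 53 known partners, such as G-patch activators, export and exon junction factors and decay partners. Of 48 above the floor, 39 were lower with MPA than in the control (49.1% of all genes were) and 9 higher. Their median was -0.22. On brightest probe sets, 4 of 48 were at least 1.5-fold lower, near the share over all genes (7.31%), and 1 was higher (5.31% of all genes). DGCR8, the Drosha partner, was lowest at 108 with MPA, 232 with guanosine, 238 with both and 226 in the control (log2 -1.06, on 1 probe set above the floor). GPATCH4, a nucleolar G-patch protein that activates DHX15, was next, at 422 with MPA, 687 with guanosine, 715 with both and 806 in the control (log2 -0.93, and -0.79 on a second probe set). The other 2 past 1.5-fold were GEMIN4, a partner of DDX20, at -0.87 and RBM10, a splicing regulator, at -0.75. Highest were THOC6, of the export complex that recruits DDX39B, at 0.92 on 1 probe set, and MAVS, the adaptor of RIG-I-like receptors, at 0.45. Other probe sets above the floor reached 2.01 for AGGF1 (brightest -0.37) and -0.80 for NKRF (brightest -0.41). In MPA + guanosine against guanosine the partners had a median of 0.02. At 1.5-fold, 0 of 48 were higher (0.0% of all genes) and 0 lower (0.0184% of all genes).

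Helicases that carry other symbols lay on both sides of control. Of 12 above the floor, 7 were lower with MPA (49.1% of all genes were) and 5 higher, with a median of -0.03. On brightest probe sets, 1 of the 12 was at least 1.5-fold lower, near the share over all genes (7.31%), and 0 were higher (5.31% of all genes). That one was DICER1, which cuts microRNA precursors in the cytoplasm, at -0.65, with its other probe sets above the floor at -0.54 and -0.58. MTREX, the helicase that feeds RNA to the nuclear exosome, was next at -0.53. DQX1 at 0.56, below the floor in the control, and SKIC2, of the cytoplasmic exosome cofactor, at 0.51 were highest. A second ASCC3 probe set above the floor gave 1.13, where the brightest gave 0.43. For SNRNP200 1 probe set gave 0.69, while the brightest gave -0.07 and the rest lay between -0.08 and 0.01. EIF4A1 and EIF4A2, the helicases of translation initiation, differed by -0.04 and -0.02 on their brightest probe sets. Others above the floor gave -0.33 and -0.03 for EIF4A1 and -0.32 and -0.19 for EIF4A2. EIF4A3, of the exon junction complex, differed by -0.30.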

How the data were processed

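The authors deposited 1 table of intensity values for 4 arrays, which is RMA signal on the linear scale per the labels (background correction, quantile normalisation and probe summary); the labels name neither software nor settings. Because of the quantile step, a shift in total mRNA cannot be seen. Each value was turned into log2. Of 49395 probe sets, 44988 had a single symbol in the platform table and entered a gene, 1832 listed several symbols and 2569 were not listed. The 135 helicase probe sets kept their symbols when looked up by Entrez ID in RefSeq. A gene took its brightest probe set. The floor, 63.0, is the median of all values other than those of the 102 control probe sets.

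Differences between 2 arrays were counted at 1.5-fold and 2-fold; precision is limited by the number of arrays. Helicases given array by array are those past 1.5-fold in MPA against control or in a comparison without the MPA array. To these come the extremes of each role group in MPA against control, and DDX21, DDX5, DDX17, DDX3X, DDX6, DHX9 and DHX15. DDX11, DDX47 and DDX60 were added. Of the partners and related helicases, the 2 highest and 2 lowest are named. Other names, the EIF4A genes and cell type markers among them, were picked with their values in view. The symbol rule for the members uses no measured value, but the choice of this family, the role groups and the lists was made with earlier results of these data known. Counting was tested on simulated data. Alternatives were no floor, the median over all probe sets of each gene, a floor at the 75th percentile, probe sets ending in _x_at left out where another exists, cyclic loess (limma 3.58.1, 3 iterations) and median centring, run with Python 3.11.15. Protein sequences were not used here.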

Additional observations from a re-analysis of the deposited data

Results flagged for a closer look

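The 5 helicases at least 1.5-fold different with MPA alone had a difference of the opposite sign with MPA in the presence of guanosine. The MPA difference with guanosine minus that without was 0.95 on the log2 scale for DDX21, 0.89 for DHX15, 0.79 for DDX56, 0.68 for DDX55 and -0.76 for DDX60L. With guanosine present the differences were between -0.02 and 0.09, so their sign carries little. The 5 were picked for a large MPA difference without guanosine, which is a term of the subtraction above. The size of that value is therefore no separate evidence. Over all 10861 genes compared with guanosine present, 0 were at least 1.5-fold higher with MPA and 2 lower. Each sign rests on 1 array per condition and the difference was not tested.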

How the results depend on the processing

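No paired analysis was possible because each condition had 1 array. For MPA against control the helicase median kept its sign under all 6 alternatives. It ran from -0.31 with the floor at the 75th percentile to -0.15 with median centring. The median over all genes moved too, to -0.05 with that floor, 0.06 with centring and 0.04 after cyclic loess. The number of helicases at least 1.5-fold lower was 3 or 4. With no floor, 2 helicases were at least 1.5-fold higher in that comparison and 2 lower in both compounds against MPA, DDX53 being the added gene in each. With the floor at the 75th percentile these counts were 0 and 0, and 0 were higher in MPA against guanosine, since DDX60L was then too dim to enter. With the median over all probe sets of each gene, 1 was lower in both compounds against guanosine (DHX9) and 3 in MPA against guanosine. With _x_at probe sets left out, 2 were lower in both compounds against MPA, DDX11 besides DDX60L. After cyclic loess and after centring, 2 were higher there. Of 108 summary values 11 moved in this way, and of 316 other values 26 moved by more than 0.1 on the log2 scale or by over 1.5 times. Of these 26, 17 came with the median over all probe sets, where DHX9 (0.15), DDX52 (0.20), DDX28 (0.13), DDX54 (0.04) and DHX8 (-0.29) changed sign in MPA against control. Another 4 came with _x_at probe sets left out, where DDX11 stood at 0.37, DDX19A at 0.15 and the export median at 0.07. The higher floor moved 4 role medians. Large subunit went to -0.52, translation and decay to -0.42 and the less characterised genes to 0.08. Small subunit went to -0.33, the value of DDX49, which alone remained there. With no floor the export median moved, to -0.11. The cause was not tested. Dim genes, and the single array per condition, limit the precision.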
